A study of Rattus norvegicus with 24 samples.

Results

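Lcn2, C1s, Cp, Lrg1, Serping1 and Stat3, genes of the acute phase response and of the complement cascade, were followed in microvessels of the rat brain cortex. They were taken as all probes whose single gene symbol in the platform annotation is one of these 6 names, which gave 9 of 31099 probes. Single probes stand for Lcn2, C1s, Lrg1 and Serping1, while Stat3 has 2 and Cp 3. Probes of a gene are not independent measurements, though they may detect different transcripts of it. Each group holds 8 arrays. In HAL, acute liver failure was made by a shunt of the portal vein into the vena cava (portocaval anastomosis) and, 24 h later, ligation of the hepatic artery. In HEP the same shunt was followed after 24 h by total hepatectomy, so these rats had no liver. Sham rats went through 2 steps of fictitious surgery. Death came 8 to 12 h after the final operation, and strain, sex and age are not given in the sources used here. No label ties an array to its own rat, so the p-values describe the spread among arrays, which may be technical, and the number of arrays limits the precision.

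In the acute phase response, cytokines of the interleukin-6 family signal through the receptor chain gp130 and the transcription factor STAT3, and interleukin-1 acts through NF-kB and C/EBP factors. The liver is the main source of acute phase proteins, but endothelial cells and astrocytes of the brain can make several of them. Lcn2 encodes lipocalin 2, which binds iron-carrying siderophores. Cp encodes ceruloplasmin, a copper-bound ferroxidase. Lrg1 encodes a secreted glycoprotein that modifies TGF-beta signalling in endothelium, as known from mice. C1s is the serine protease that, with C1r and C1q, starts the classical complement pathway, and Serping1 encodes the C1 inhibitor that blocks it.

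The promoters of Lcn2 and Cp are shown because C/EBP and STAT factors are the known inducers of acute phase genes. RefSeq promoters of build GRCr8, 250 bases before to 50 after the start, matched 4 of the 6 genes by gene ID (Lcn2, Cp, Lrg1 and Stat3). Capitals mark the C/EBP motif TTGCNNAA, looked for on both strands. That of Lcn2 lies on the minus strand at chr3:36081731-36082030, and that of Cp on the plus strand at chr2:104368420-104368719.
Lcn2: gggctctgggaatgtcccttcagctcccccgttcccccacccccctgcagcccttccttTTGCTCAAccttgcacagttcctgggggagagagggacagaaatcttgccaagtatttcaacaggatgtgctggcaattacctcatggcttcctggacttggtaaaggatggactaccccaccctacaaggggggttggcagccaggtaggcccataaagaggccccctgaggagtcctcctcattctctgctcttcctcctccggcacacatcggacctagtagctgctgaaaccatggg
Cp: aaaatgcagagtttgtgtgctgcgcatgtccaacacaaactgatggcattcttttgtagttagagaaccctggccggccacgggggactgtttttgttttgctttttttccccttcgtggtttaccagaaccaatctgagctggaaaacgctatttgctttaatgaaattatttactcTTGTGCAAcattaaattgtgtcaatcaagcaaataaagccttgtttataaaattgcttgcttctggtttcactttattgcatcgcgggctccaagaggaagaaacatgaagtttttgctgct
The match lies 191 to 184 bases before the start in Lcn2, and 72 to 65 bases before it in Cp, there as the reverse complement. Lrg1 and Stat3 held no match. The motif is present in 10.6% of all 33469 promoters, so 2 matches in 4 are a description only. The STAT motif TTCNNNGAA, whose letters are the same on both strands, was in 0 of the 4 windows and in 8.9% of all promoters.

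The numbers as provided were taken to be the decimals of the log2 signals, with integer parts missing and zeros at either end lost. Under this reading, which was inferred from the digits, 9 decimals mark a signal below 10 and 8 decimals a signal of 10 or more. A level could thus be read only near 10, for probes with 1 to 14 cells of 9 digits among 24 arrays. There 9-digit cells were given the integer 9, 8-digit cells the integer 10, and still shorter cells were not read. A lost zero makes a lower signal look like one above 10, and a probe that lies well below 10 can enter the range in this way. Signals under 9 or over 11 are misread, so that no difference is an exact fold. Lcn2, C1s and the Cp probe 1368420_at lay near 10. Serping1, Lrg1 and the Stat3 probe 1370224_at had 9 digits on 0 arrays and are called at 10 or above here. The other Cp and Stat3 probes lay below 10. For these and for probes at 10 or above only the decimals can be set side by side.

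The label of the tissue was checked against vascular markers. Of the 15 endothelial markers on the array, 14 were at 10 or above by some probe, among them Cldn5, Pecam1 and Flt1. So were 5 of 9 perivascular fibroblast, 4 of 10 astrocyte and 2 of 9 oligodendrocyte markers, so other cell types are also present. Of pericyte markers it was 4 of 13, of smooth muscle markers 3 of 10, of neuron markers 0 of 12, and of microglia markers 0 of 11. But 4 neuron markers lay near 10, and Snap25 averaged 10.55 in HAL, 10.47 in HEP and 10.58 in Sham, so RNA of neurons is not shown to be absent. Replicate arrays agreed only weakly in their readings near 10, with a median correlation across probes of 0.171 between arrays of a group. HAL arrays 2 and 5 and Sham array 3 had the lowest median readings, at 9.95, 9.993 and 9.999, against 10.125 to 10.197 for the other arrays. The differences of the member probes near 10 from Sham are therefore also given without these 3.

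Lcn2 and C1s had higher readings in HAL than in Sham microvessels, by 0.80 and 0.75 on the log2 scale, and neither passed an adjusted p of 0.05. The readings of Cp nearly coincided in the 3 groups. In HEP the differences of Lcn2 and C1s from Sham were positive but smaller and did not pass.

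For Lcn2 the readings in HAL had a lowest value of 10.23, a median of 10.73 and a highest of 10.99 over 5 arrays read. In HEP the lowest, median and highest readings were 9.95, 10.1 and 10.62 over 6 arrays. In Sham they were 9.22, 9.66 and 10.98 over 8 arrays. All HAL readings were above 10, but the Sham arrays were spread widely, and Sham array 5 lay just under the highest HAL array, so the groups overlapped. Lcn2 averaged 10.65 ± 0.32 in HAL (SD, n = 5), 10.15 ± 0.24 in HEP (SD, n = 6) and 9.85 ± 0.66 in Sham (SD, n = 8). The difference between HAL and Sham was 0.80 (95% interval 0.25 to 1.34, unadjusted p = 0.00647, adjusted p = 0.103 in limma). Without Sham array 5 alone it was 0.96 and passed (adjusted p = 0.023 in limma). The difference did not pass in the other 33 alternative fits, which had adjusted p of up to 0.205 in limma. Without the 3 arrays of lowest median reading it was 0.93 (adjusted p = 0.1 in limma). Of all 2526 probes tested near 10, 0.55% had a positive difference at least as large as the 0.80 of Lcn2, and negative ones of this size were not counted. The means leave out HAL arrays 2, 3 and 7, whose cells were shorter, while all Sham arrays were read. With such cells read as just above 10, their lost zeros put at the front, the difference was 0.56 (adjusted p = 0.184 in limma).

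The number of digits alone gives a view of Lcn2 that also covers the arrays not read. In HAL 0 of 8 arrays had a cell of 9 digits, in HEP 2 of 8 and in Sham 5 of 8. More HAL than Sham arrays thus had the shorter cells that a signal of 10 or above gives. In probes below 10 about 18% of cells are shortened by lost zeros. Fisher's exact test of HAL against Sham, two-sided, gave p = 0.0256, which did not pass over 27568 probes (adjusted p = 1.0). A split of 0 against 5 is the most uneven possible for this number of 9-digit cells, so Lcn2 could not reach a smaller p. With 8 arrays in a group, a single probe cannot pass this test on its own over so many probes. No probe passed this test, and 348, or 1.26% of those tested, had an unadjusted p under 0.05. In HEP against Sham these were 0 and 1.08%, and Lcn2 had p = 0.315 by this exact test. The readings rest on the same digits, so both give 1 measurement.

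**Figure D1:**
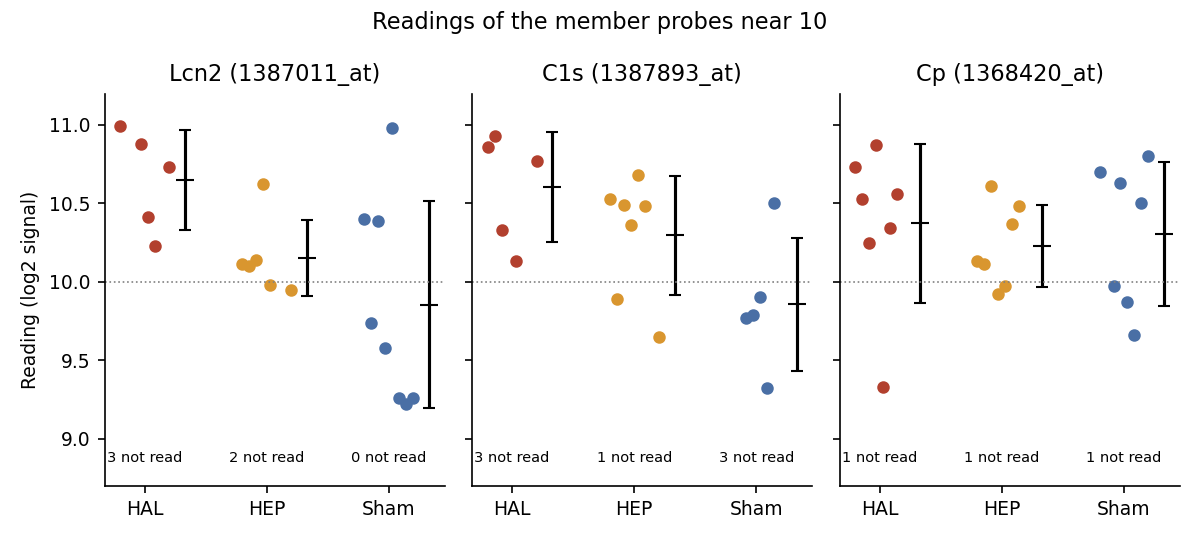
Readings (log2 signal, vertical axis) of Lcn2, C1s and the Cp probe 1368420_at in HAL, HEP and Sham, 1 point for each array read, with mean and SD in black and the number of arrays not read below. All HAL points of Lcn2 and C1s lie above 10 (dotted line), while 5 of 8 Sham points of Lcn2 and 4 of 5 of C1s lie below it.

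C1s showed the same order of group means. Its lowest, median and highest readings were 10.13, 10.77 and 10.93 in HAL over 5 arrays read. They were 9.65, 10.48 and 10.68 in HEP over 7 arrays, and 9.32, 9.79 and 10.5 in Sham over 5 arrays. Only Sham array 7 reached 10 among the Sham arrays read, and it lay among the HAL values, so these groups overlapped too. C1s averaged 10.6 ± 0.35 in HAL (SD, n = 5), 10.3 ± 0.38 in HEP (SD, n = 7) and 9.86 ± 0.42 in Sham (SD, n = 5). The difference between HAL and Sham was 0.75 (95% interval 0.25 to 1.25, unadjusted p = 0.00571, adjusted p = 0.0931 in limma). It passed without Sham array 7 (0.91, adjusted p = 0.0419 in limma) and with array weights (0.84, adjusted p = 0.0436 in limma). The difference did not pass in the other 32 alternative fits, which had adjusted p of up to 0.245 in limma. Without the 3 arrays of lowest median reading it was 0.78 (adjusted p = 0.198 in limma). The means leave out Sham arrays 1, 2 and 8 and HAL arrays 4, 6 and 7, whose cells had 7 digits. Such a cell takes fewer lost zeros from a signal of 10 or above than from one below 10. With short cells read as just above 10, their lost zeros put at the front, the difference was 0.47 (adjusted p = 0.158 in limma). Cells of 9 digits numbered 0 of 8 in HAL, 2 of 8 in HEP and 4 of 8 in Sham (Fisher's exact test of HAL against Sham, two-sided p = 0.0769). The split between HAL and Sham is again the most uneven possible, so C1s could not reach a smaller p in this test.

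Cp near 10, probe 1368420_at, read 9.33 to 10.87 in HAL, 9.92 to 10.61 in HEP and 9.66 to 10.8 in Sham over 7 arrays each. The 3 ranges overlapped almost wholly. Its means were 10.37 ± 0.50 in HAL, 10.23 ± 0.26 in HEP and 10.31 ± 0.46 in Sham (SD, n = 7 each). The differences from Sham were 0.07 in HAL (95% interval -0.39 to 0.52) and -0.08 in HEP (95% interval -0.53 to 0.38), with adjusted p of 0.933 and 0.932 in limma. The sign of both changed with single arrays left out, so Cp has no direction here. Without the 3 arrays of lowest median reading the differences were 0.19 and -0.13 (adjusted p = 0.743 and 0.834 in limma).

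In the HAL comparison 0 of the 3 member probes near 10 passed, against 3.72% of all probes near 10 (1.07% higher and 2.65% lower), and 2 had an unadjusted p under 0.05, against 17.1%. In the HEP comparison 0 of 3 passed, against 2.18% (1.19% higher and 0.99% lower), and 0 had an unadjusted p under 0.05, against 14.5%. There the difference of Lcn2 was 0.30 (95% interval -0.22 to 0.81, adjusted p = 0.646 in limma) and that of C1s 0.44 (95% interval -0.02 to 0.90, adjusted p = 0.374 in limma). Without the 3 arrays of lowest median reading they were 0.37 and 0.42 (adjusted p = 0.556 and 0.447 in limma). With single arrays left out Lcn2 had 0.20 (without HEP array 4) to 0.46 (without Sham array 5) and C1s 0.31 to 0.60, and 0 of these passed. The median difference of all probes near 10 was -0.03 in HAL and close to 0 in HEP. Both comparisons use the same Sham arrays.

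Set directly against HEP, HAL had a difference of 0.50 in Lcn2 (95% interval -0.08 to 1.08, adjusted p = 0.662 in limma), of 0.31 in C1s (95% interval -0.16 to 0.77, adjusted p = 0.762 in limma) and of 0.14 in Cp (adjusted p = 0.912 in limma). No probe near 10 passed in this comparison (0 of 2526, or 0%), and 216, or 8.55%, had an unadjusted p under 0.05, against 0 of the 3 member probes. These differences were 0.56, 0.36 and 0.32 without the 3 arrays of lowest median reading and did not pass. Lcn2 and C1s thus passed between no pair of the 3 groups, apart from the few alternative fits of HAL against Sham given above.

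**Figure D2:**
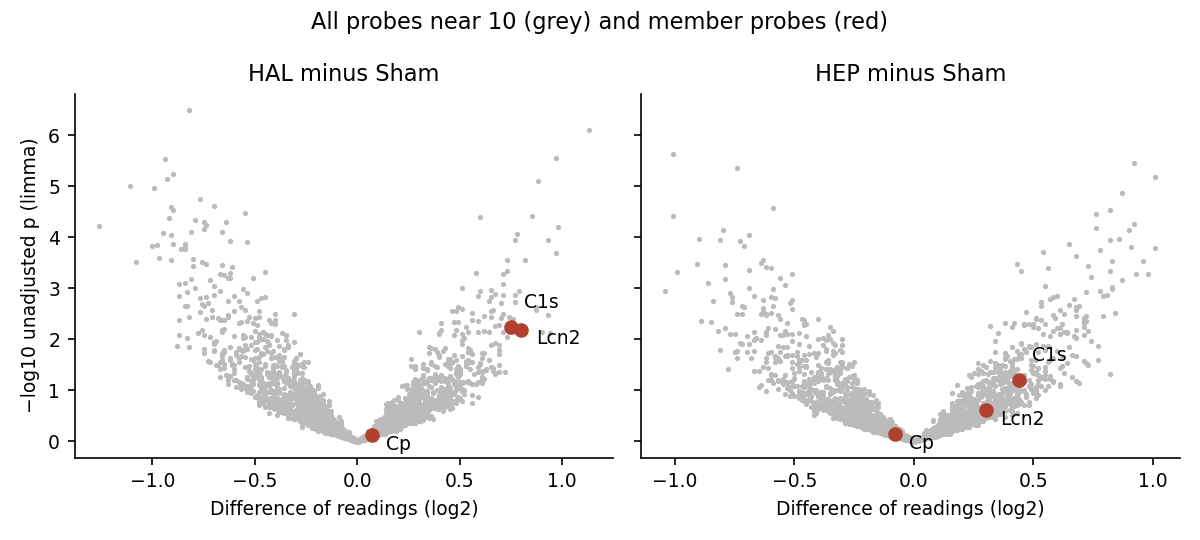
Difference of readings (log2, horizontal axis) and −log10 of the unadjusted limma p (vertical axis) for all 2526 probes near 10 (grey) and the 3 member probes (red), HAL minus Sham on the left and HEP minus Sham on the right. Lcn2 and C1s lie at 0.80 and 0.75 in HAL, among other probes with lower p, and at 0.30 and 0.44 in HEP, while Cp lies near 0 in both.

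In bulk samples such as these, more cells of a type and more RNA per cell cannot be told apart. Markers of the cell types that a vessel preparation can hold were therefore set beside Lcn2 and C1s. Among those near 10 in HAL 0 passed upward and 2 downward, and in HEP 0 passed. Of all probes near 10, 1.07% passed upward and 2.65% downward in HAL, and 2.18% passed in HEP. Col3a1, a fibrillar collagen of perivascular fibroblasts, averaged 9.61 in HAL and 10.48 in Sham, and 0 of 7 HAL, 4 of 8 HEP and 7 of 7 Sham arrays read reached 10. It fell by 0.87 in HAL (adjusted p = 0.0312 in limma) and had -0.48 in HEP (adjusted p = 0.317 in limma). The other fibroblast marker near 10, the collagen Col1a2, had -0.83 in HAL and -0.61 in HEP (adjusted p = 0.0567 and 0.206 in limma). Atp13a5, a pericyte marker in mice, averaged 9.69 in HAL, 9.76 in HEP and 10.48 in Sham. It fell by 0.79 in HAL (adjusted p = 0.0361 in limma) and had -0.72 in HEP (adjusted p = 0.0853 in limma). The other 3 pericyte markers near 10 had -0.03 to 0.23 in HAL and -0.19 to 0.54 in HEP. Among endothelial markers near 10, Erg had -0.43 in HAL and 0.09 in HEP (adjusted p = 0.306 and 0.908 in limma), and Tie1 -0.02 and 0.07. At 10 or above 5 endothelial markers could be compared by their decimals, and 0 passed. Of these Emcn had -0.34 in HAL and -0.24 in HEP (adjusted p = 0.0691 and 0.219 in limma). The others had -0.08 to 0.04 in HAL and -0.06 to 0.13 in HEP.

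The calls of Col3a1 and Atp13a5 in HAL depended on single arrays. That of Col3a1 was lost without any of HAL arrays 6, 7 and 8 or Sham arrays 2, 7 and 8 (adjusted p of 0.0511 to 0.0671 in limma), and that of Atp13a5 without any of HAL arrays 1, 2, 5 and 6 or Sham arrays 6, 7 and 8 (adjusted p of 0.0513 to 0.0813 in limma). Without the 3 arrays of lowest median reading Col3a1 had -1.05 (adjusted p = 0.0454 in limma) and Atp13a5 -0.63 (adjusted p = 0.182 in limma). Without the 7 arrays furthest from the median reading both calls were lost (adjusted p = 0.143 and 0.212 in limma). In HEP Atp13a5 passed without HAL array 3 or HEP array 8 (adjusted p = 0.0484 and 0.0249 in limma).

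Markers of blood and brain cells near 10 did not pass. Of 12 neutrophil and monocyte markers with a probe, Lcn2 included, 0 lay at 10 or above on all arrays and 10 had all probes below 10. Lyz2, the lysozyme of myeloid cells, lay near 10 with a difference of 0.17 in HAL (adjusted p = 0.752 in limma) and 0.33 in HEP (adjusted p = 0.495 in limma). In the probes below 10 of these markers, 23.9% of cells in HAL, 21.6% in HEP and 15.9% in Sham had fewer than 9 digits, against 17.9% to 18.1% in all probes below 10 in the 3 groups. Other short lists moved as far, such as the oligodendrocyte markers with 23.9% in HAL, 15.9% in HEP and 15.9% in Sham and the perivascular fibroblast markers with 20.3%, 20.3% and 10.9%. Among microglia markers Tyrobp, a signalling adaptor, had -0.13 in HAL and -0.08 in HEP. The oligodendrocyte marker Cnp had -0.2 in HAL and -0.67 in HEP (adjusted p = 0.707 and 0.148 in limma), while Olig2 had 0.27 and -0.31 and Mobp -0.09 in both. The 4 astrocyte markers near 10 had differences of -0.14 to 0.41 in HAL and 0.00 to 0.32 in HEP, and 0 passed. Gja1, an astrocyte marker at 10 or above, had 0.16 in HAL and 0.00 in HEP by its decimals (adjusted p = 0.307 and 0.988 in limma). The levels of these markers could not be summed, since integer parts are missing, and their part in the results was not tested.

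The Stat3 probe 1371781_at and the Cp probes 1368418_a_at and 1368419_at had 19 cells of 9 digits each among the 24 arrays. For the Stat3 probe these were 4 of 8 in HAL, 8 of 8 in HEP and 7 of 8 in Sham. The HAL arrays thus had more short cells, but Fisher's exact test of HAL against Sham did not pass (two-sided p = 0.282). For 1368418_a_at the numbers were 5, 7 and 7, and for 1368419_at 6, 7 and 6 (Fisher's exact test of HAL against Sham, two-sided p = 0.569 and 1.0). Whether a short cell in these probes is a signal at 10 or above or a lost zero cannot be told apart.

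**Figure D3:**
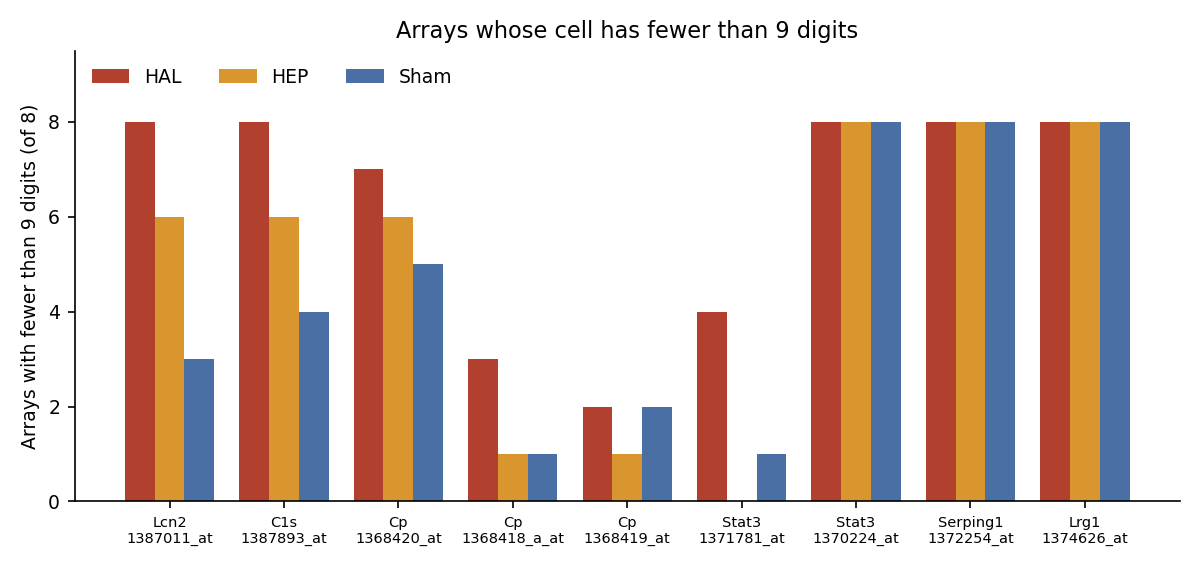
Number of arrays, of 8 in each group (vertical axis), whose cell has fewer than 9 digits, for the 9 member probes in HAL, HEP and Sham. For Lcn2 and C1s the number is 8 in HAL, 6 in HEP and 3 or 4 in Sham, and for the 3 probes on the right it is 8 in all groups.

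The decimals of the 2 Cp probes below 10 lay in similar places. In 1368418_a_at they ran from 0.106 to 0.88 in HAL, from 0.38 to 0.758 in HEP and from 0.316 to 0.893 in Sham. In 1368419_at they ran from 0.559 to 0.927 in HAL, from 0.347 to 0.971 in HEP and from 0.303 to 0.904 in Sham. No pair of groups lay on separate stretches in either probe, as 2.47% of probes below 10 did between HAL and Sham, 1.94% between HEP and Sham and 1.44% between HAL and HEP. The groups also overlapped in the Stat3 probe below 10, with 0.131 to 0.737 in HAL, 0.147 to 0.949 in HEP and 0.173 to 0.684 in Sham.

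Serping1, at 10 or above on all arrays, is given by its decimals. The 6 HEP arrays read gave 0.993, 0.914, 0.146, 0.974, 0.916 and 0.956, so 5 of them lay within a narrow range and 1 apart from it. In HAL they ran from 0.114 to 0.82 over 8 arrays, and in Sham the lowest was 0.328 over 6 arrays. As 0 and 1 are the same point on the circle of decimals, closeness was measured by the resultant length, which is 1 for equal decimals and 0 for evenly spread ones. It was 0.89 in HEP, 0.19 in HAL and 0.32 in Sham. The decimals of HEP arrays lay closer together than those of HAL and Sham, a difference in spread that was not tested, and no difference in level can be read from it.

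Lrg1 had the HEP and Sham arrays that were read on separate stretches of the circle. Its decimals were 0.256, 0.998, 0.466, 0.136, 0.127 and 0.214 in the 6 HEP arrays read, against 0.663, 0.707, 0.942, 0.764 and 0.501 in the 5 Sham arrays read. The circular means were 0.19 in HEP and 0.71 in Sham, nearly opposite each other, so the direction of the move cannot be read. Sham arrays 1, 2 and 3 and HEP arrays 4 and 8 had shorter cells and were not read. A zero lost at the front would put a Sham cell just above 0, inside the HEP stretch, and end the separation. Whether this is so cannot be told. Among the arrays read such a separation was found in 1 of the 3 member probes at 10 or above, against 3.28% of the 1918 probes compared. In HAL the decimals were 0.132, 0.555, 0.516, 0.942, 0.324 and 0.145 over 6 arrays, and they overlapped with both other groups. Between HAL and Sham 4.64% of probes at 10 or above were separated, and 0 of the 3 member probes. Between HAL and HEP it was 2.19%, and again 0 of the 3.

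Stat3 at 10 or above, probe 1370224_at, had decimals of 0.34 to 0.932 in HAL over 7 arrays, 0.155 to 0.839 in HEP over 6 arrays and 0.101 to 0.909 in Sham over 6 arrays. They overlapped in all pairs of groups. With the decimals unwrapped around the mean of all arrays, the 9 differences of Serping1, Lrg1 and Stat3 had adjusted p of 0.503 to 0.932 in limma over 1933 probes, of which 1.19% passed in HAL, 0.673% in HEP and 0% between HAL and HEP. The resultant lengths of these 3 probes over all arrays, 0.26, 0.13 and 0.13, were below the limit of 0.5 set for this fit, so these differences have no reliable sign.

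**Figure D4:**
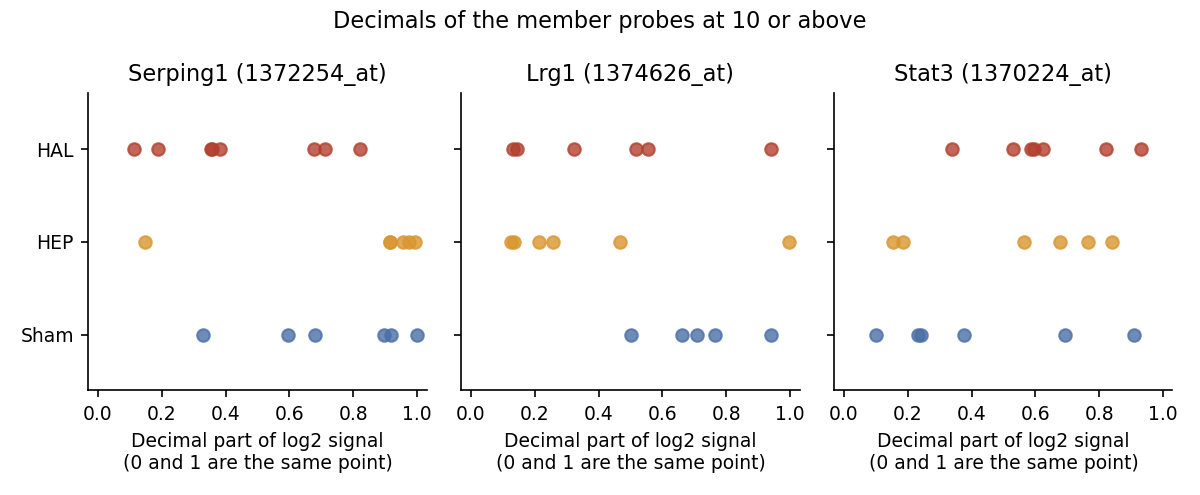
Decimal part of the log2 signal (horizontal axis, where 0 and 1 are the same point) of Serping1, Lrg1 and the Stat3 probe 1370224_at, 1 point for each array read, in HAL, HEP and Sham. The HEP points of Serping1 lie close together except 1, and those of Lrg1 share no stretch with the Sham points. Sham arrays 1, 2 and 3 of Lrg1 were not read and are not shown.

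Of 101 further genes of the acute phase, complement and interleukin-6 pathways and of partners of the 6 genes, 12 lay near 10. In HAL 1 of the 12 passed upward and 0 downward, 6 had positive differences, and the median was -0.06. In HEP 1 passed upward and 0 downward, 7 were positive, and the median was 0.02. The gene that passed in both was Mt2A, a metallothionein that binds zinc and copper and is induced by interleukin-6 and glucocorticoids. Its mean reading was 10.67 in HAL, 10.59 in HEP and 9.86 in Sham, and 7 of 7 HAL, 7 of 8 HEP and 2 of 7 Sham arrays read reached 10. It rose by 0.82 in HAL (adjusted p = 0.0155 in limma) and by 0.74 in HEP (adjusted p = 0.033 in limma). Neither call held without the 7 arrays that stand apart by their median reading (HAL arrays 2, 3, 5 and 6, HEP arrays 1 and 2 and Sham array 3), with differences of 0.82 and 0.80 and adjusted p of 0.207 and 0.11 in limma. The HEP call was also lost with 11 of 24 arrays left out singly, 5 of Sham (arrays 2, 3, 5, 6 and 7) and 6 of HEP (arrays 1, 3, 4, 5, 6 and 7), at adjusted p of 0.052 to 0.083 in limma, and without the 3 arrays of lowest median reading (0.75, adjusted p = 0.0585). Without those 3 the HAL call held (0.90, adjusted p = 0.0454 in limma). With only the groups compared the HEP call was lost (adjusted p = 0.0731 in limma). Both calls were lost with the replicate number as a block. The other gene of the acute phase list near 10, the metallothionein Mt1, had 0.16 in HAL and 0.04 in HEP (adjusted p = 0.816 and 0.984 in limma).

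In the interleukin-6 and STAT3 pathway 0 of 3 genes near 10 passed in HAL or HEP. The smallest p belonged to Irf9, a partner of STAT proteins in interferon signalling, with -0.34 in HAL (adjusted p = 0.496 in limma) and -0.44 in HEP (adjusted p = 0.493 in limma). It had -0.12 in HAL without the 3 arrays of lowest median reading. Cebpb, a C/EBP factor that drives acute phase genes, had -0.41 in HAL and 0.02 in HEP, and Il6st, which encodes gp130, -0.15 and 0.02. At 10 or above 1 gene of this list could be compared by its decimals, the phosphatase Ptpn11, with 0.07 in HAL and -0.01 in HEP (adjusted p = 0.649 and 0.973 in limma). Of the 856 probes in this fit 0.117% passed in HAL and 0.701% in HEP.

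Among complement genes and regulators 0 of 3 near 10 passed in HAL or HEP. Cd93, an endothelial receptor once described as a C1q receptor, had the smallest p, with -0.55 in HAL (adjusted p = 0.151 in limma) and -0.30 in HEP (adjusted p = 0.566 in limma). Cd55, which speeds the decay of complement convertases, had 0.31 in HAL and -0.09 in HEP, and C3ar1, the C3a receptor, 0.14 and 0.12. Clu, Vtn and Cr1l, all inhibitors of complement, were each at 10 or above by 1 probe or more. All probes of 25 of the 31 complement genes with a probe lay below 10.

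Of the partners of the 6 genes 0 of 4 passed. The smallest p in both comparisons was that of Slc40a1, ferroportin, which exports the iron that ceruloplasmin oxidises, with -0.27 in HAL and -0.22 in HEP (adjusted p = 0.493 and 0.605 in limma). Eng, the TGF-beta co-receptor endoglin through which LRG1 acts in mice, had -0.23 and 0.08. Slc22a17, a lipocalin 2 receptor, had 0.05 and 0.18, and Tfrc, the transferrin receptor, 0.02 and -0.14.

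**Figure D5:**
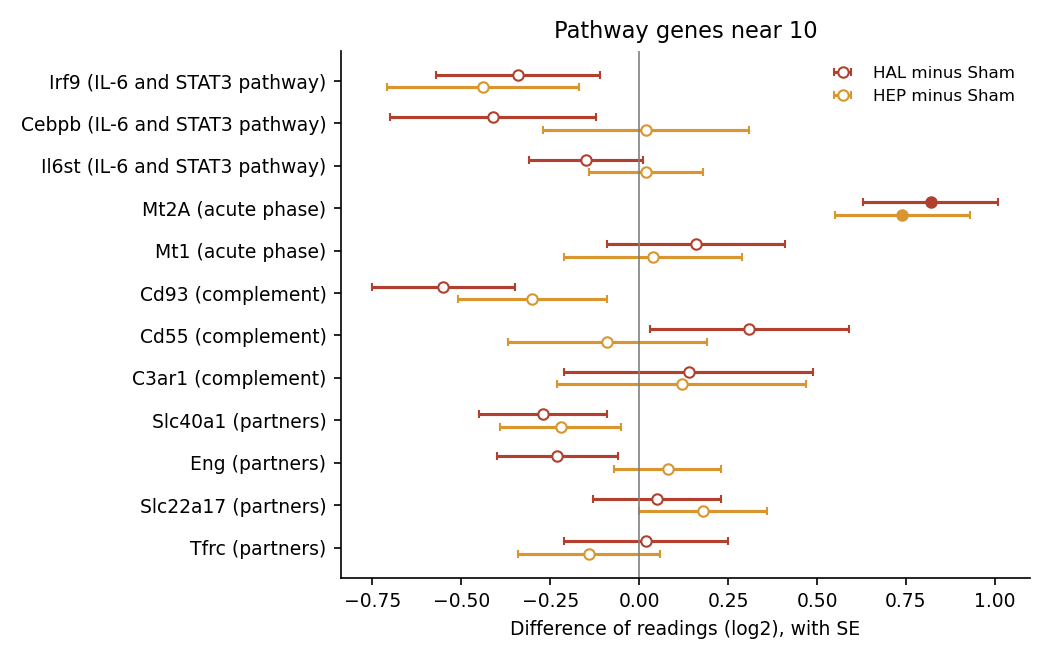
Difference of readings (log2, horizontal axis) with SE for the 12 pathway genes near 10, HAL minus Sham above HEP minus Sham for each gene. Filled points passed an adjusted p of 0.05 in limma, which only Mt2A did, at 0.82 in HAL and 0.74 in HEP.

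The readings most like those of Lcn2, among 552 probes that share at least 18 arrays with it, were those of Ccr3, Atp6v1b2 and Amz2 with Pearson's r of 0.68, 0.66 and 0.65 over 18, 18 and 19 arrays. Those most like Cp, among 1147 probes, were Pln, Mid1ip1 and Rreb1 with r of 0.86, 0.72 and 0.68 over 18, 20 and 19 arrays. C1s was read on 17 arrays, too few for this measure. These are the highest of many values from arrays that share their median readings, and they are a description only.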

How the data were processed

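Gene expression was measured on 1 single-colour Affymetrix array for each of 24 samples. The submitters' processing notes name RMA, with no version, and RMA returns normalised log2 values. The deposited table as provided here holds whole numbers of at most 9 digits, taken as the decimals of those log2 values, and where the integer parts were lost is unknown. The labels' protocols name a whole-transcript labelling kit, while the probe identifiers belong to a 3' expression array.

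By the number of 9-digit cells, 2527 probes (1 to 14 such cells, and 13.5% of cells not read) were near 10, 1933 (0 such cells) at 10 or above and 26639 (15 or more) below 10. limma 3.58.1 in R 4.3.3 was fitted on group means over all 24 arrays with Benjamini-Hochberg adjustment over all probes of a class with at least 2 readings in each group. Fisher's exact test used the number of digits. Decimals at 10 or above were unwrapped around their circular mean, with a resultant length of at least 0.5 unless stated. Groups were on separate stretches if an arc held all arrays read of one and none of the other. That count was chosen after the data were seen. The fit without a limit had been set down as an alternative, and it was used for Serping1, Lrg1 and Stat3 after they were seen to miss the limit. Readings and tests were run on simulated data first. Dim probes were not filtered, as this takes levels.

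The genes, lists and tests were chosen with earlier results of these data known. All member probes are named, and from each pathway list the called genes or else the one of smallest p. The other list genes near 10, and markers, were added after their values were seen. Digits were parsed in Python 3.11.15 (pandas 2.3.3, numpy 2.4.6) and Fisher's tests run in scipy 1.17.1.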

Additional observations from a re-analysis of the deposited data

Results flagged for a closer look

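In HEP array 4 the reading of Lcn2 was 10.62, above the other 5 HEP arrays read, which lay between 9.95 and 10.14. In HAL array 5 the reading of Cp probe 1368420_at was 9.33, below the other 6 HAL arrays read, which lay between 10.25 and 10.87, and this array also had one of the 3 lowest median readings. In both cases the gap to the nearest array was larger than Dixon's 95% limit, which chance exceeds in about 1 of 20 groups, and 9 groups were looked at. A reading can also be off by a unit where a zero was lost, and for these cells this was not tested.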

How the results depend on the processing

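The HAL minus Sham differences of Lcn2 and C1s were positive in the other settings run, at 0.56 to 1.09 and 0.47 to 0.94, and at 0.7 to 0.96 and 0.61 to 0.91 with single arrays left out. The lowest values, 0.56 and 0.47, came with short cells read with leading zeros. Cp had -0.04 to 0.24 in HAL and -0.18 to 0.00574 in HEP with single arrays left out. Unwrapped decimals changed sign in Stat3 with short cells read with leading zeros (-0.27 in HAL, -0.1 between HAL and HEP). The cause was not tested for any of these.

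Of probes near 10, 94 passed in HAL (27 higher, 67 lower), and 95 (41 higher, 54 lower) with each array centred. This became 42 without the 3 arrays of lowest median reading and 0 without the 7 arrays over 2 median absolute deviations from the median, in fits of fewer arrays. In HEP 55 passed, 127 with array weights and 17 without those 7 arrays. With single arrays left out the counts were 63 to 120 in HAL, 29 to 137 in HEP and 0 between HAL and HEP. The HEP count was 137 without HEP array 8, 35 without Sham array 6, and 34, 34, 33 and 29 without HEP arrays 4, 5, 6 and 7.

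At 10 or above 1 probe passed in HAL and 6 in HEP. In HAL there were 0 at a resultant length of 0.7, 23 with no limit, 2 with short cells read, 7 with arrays centred and 0 with only the groups compared, and in HEP 0, 13, 0, 13 and 1. With single arrays left out they were 0 to 18, 0 to 23 and, between HAL and HEP, 0 to 2. The count of 18 came without Sham array 8 and that of 23 without HEP array 8. No member passed with no limit.

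Same-numbered arrays deviated together, with a correlation above 0.1, for 1 of 8 numbers in each pair of groups. Arrays of a group also correlated weakly (median 0.171), so this check cannot tell whether the numbers pair the samples. With the replicate number as a block Mt2A lost both calls (HAL 0.82, adjusted p = 0.0538 in limma, and HEP 0.74, adjusted p = 0.103), Col3a1 lost that in HAL (-0.9, adjusted p = 0.132) and Lcn2 had 0.11 in HEP. With array weights Atp13a5 passed in HEP (-0.75, adjusted p = 0.0358). With the block, 1 probe near 10 and 2 at 10 or above passed between HAL and HEP, and at 10 or above 22 in HAL and 12 in HEP. Cp then had 0.00212 in HEP, the Stat3 probe 0.07 in HEP and Lrg1 -0.04 between HAL and HEP. With the block Lcn2 had 0.74 in HAL (adjusted p = 0.1 in limma) and C1s 0.92 (adjusted p = 0.112 in limma), and no call of a member changed. Fisher's exact test called 0 probes also when only cells of 9 and 8 digits were counted, where the small number of arrays limits it in the same way.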
